A study of Mus musculus with 4 samples.

Results

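Nox4 and 7 further genes of superoxide and peroxide handling, Cyba, Sod1, Sod2, Sod3, Gpx3, Hmox1 and Nqo1, were followed in smooth muscle cells sorted from the mouse aorta. The 8 genes were taken by symbol from the 32287 genes listed in the matrices, and each symbol matched 1 row. Single-cell RNA-seq libraries were made from the ascending aorta and arch of C57BL/6J mice aged 12 weeks. KO stands for 2 libraries from mice of the genotype Tgfbr1/2iSMCKO, with floxed alleles of both TGF-beta receptor genes (Tgfbr1f/f and Tgfbr2f/f), and WT for 2 libraries from GFPiSMC mice without them. Both genotypes carried Myh11-CreERT2, an inducible Cre, and the mT/mG reporter, which exchanges tdTomato for eGFP upon recombination. Both also received tamoxifen for 5 days, either 1 mg a day from 4 weeks or 2 mg a day from 11 weeks, and which course a library had is not stated. Cre was driven by the Myh11 promoter, so recombination was directed to smooth muscle, and only viable single cells with green fluorescence were sorted. How many mice each library held is not stated, and p-values therefore measure the spread between these libraries, which may be technical.

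Libraries of KO 1, KO 2, WT 1 and WT 2 held 4252, 3522, 2429 and 3265 cells after filtering. Their depth lay between 35255748 and 59203071 UMIs (unique molecular identifiers, 1 per captured transcript end), with medians of 13898 to 15383 UMIs per cell. Any 2 libraries shared between 2 and 5 cell barcodes. Smooth muscle markers dominated: the 8 listed had a sum of 51093 and 48111 CPM (UMI counts scaled to a common library total) in KO and 45363 and 47380 CPM in WT. Among 12 markers of endothelium, a further site of Nox4 expression, 9 were tested, 7 called higher and 1 lower, and the whole list had a sum of 86.8 and 71.3 CPM in KO and 43.7 and 46.8 CPM in WT. Plvap made up 51.3 and 39.2 CPM of this in KO and 14.4 and 17.1 CPM in WT. Cdh5 had 0.505 and 0.603 CPM in KO and was at 0 in both WT libraries. The marker called lower was Pecam1, with 12.6 and 11.7 CPM in KO and 14.4 and 17.7 CPM in WT, and Esam was not called. The endothelial markers thus did not all move in the same direction. Tgfbr1 and Tgfbr2 transcripts were counted in all libraries, at 73.3 and 76.1 CPM (Tgfbr1) and 46.5 and 47.3 CPM (Tgfbr2) in KO, against 80.8 and 82.3 CPM and 51.6 and 45.1 CPM in WT. Which exons are floxed is not stated, and 3′ tags outside them check nothing.

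NADPH oxidases move electrons from NADPH across a membrane onto oxygen. NOX4, the main such enzyme of vascular smooth muscle, releases chiefly hydrogen peroxide, is active without stimulation and is therefore set largely by its amount. It works only in a complex with the small membrane subunit encoded by Cyba, and TGF-beta is a well-known inducer of its transcript. Superoxide dismutases turn superoxide into hydrogen peroxide in the cytosol (SOD1), the mitochondrial matrix (SOD2) and the extracellular matrix (SOD3), and glutathione peroxidases, catalase and peroxiredoxins remove the peroxide. Heme oxygenase (Hmox1) and a quinone reductase (Nqo1) are classic targets of NRF2, the transcription factor that responds to oxidants.

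The sequences upstream of Nox4, which was called lower in KO, and of its partner gene Cyba and the NRF2 target Nqo1, which were not called, are shown. Whether they have a part in these outcomes was not tested. Each sequence holds the 250 bases before the RefSeq start on GRCm38.p6, 5′ to 3′ on the strand of the gene. In GENCODE M21 the Nox4 gene begins earlier, at 87246096, so its window lies inside that gene model. The same holds for the windows of Sod2 and Gpx3, which are not printed. Capitals mark matches to the CAGA box (CAGACA), which SMAD proteins can bind. 6 of the 8 genes had an entry, and Sod3 and Hmox1 were not matched.
Nox4, chr7:87246399-87246648, plus strand: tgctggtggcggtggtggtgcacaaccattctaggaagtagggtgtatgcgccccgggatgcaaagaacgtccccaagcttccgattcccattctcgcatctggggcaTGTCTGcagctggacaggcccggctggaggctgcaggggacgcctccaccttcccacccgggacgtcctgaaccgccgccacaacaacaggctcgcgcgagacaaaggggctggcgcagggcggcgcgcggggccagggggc
Cyba, chr8:122432941-122433190, minus strand: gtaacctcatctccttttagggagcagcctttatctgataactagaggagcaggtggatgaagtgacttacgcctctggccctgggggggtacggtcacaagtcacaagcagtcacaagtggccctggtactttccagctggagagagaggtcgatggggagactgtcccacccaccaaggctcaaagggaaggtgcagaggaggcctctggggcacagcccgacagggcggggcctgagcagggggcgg
Nqo1, chr8:107403206-107403455, minus strand: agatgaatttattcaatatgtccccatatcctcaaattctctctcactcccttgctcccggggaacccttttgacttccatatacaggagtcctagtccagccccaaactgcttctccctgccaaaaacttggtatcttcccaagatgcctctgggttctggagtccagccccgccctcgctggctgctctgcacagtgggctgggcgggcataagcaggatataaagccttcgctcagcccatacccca

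Both strands were searched for the CAGA box, the SMAD palindrome (GTCTAGAC), the core of the antioxidant response element bound by NRF2 (TGACNNNGC) and the AP-1 site (TGANTCA). Nox4 held 1 CAGA box, 142 bases before the RefSeq start, and 17.0% of 32536 promoter windows of different sequence held a CAGA box. Sod1 held 1 antioxidant response element core, found in 10.2% of windows, and it lay 56 bases before the start. No other match to the 4 motifs occurred in the 6 windows, and the SMAD palindrome stood in 0.169% and the AP-1 site in 6.73% of all windows. A match of letters does not show a bound site, and these windows leave out more distant sequence.

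Nox4 fell steeply in KO smooth muscle cells, and Sod3, the secreted dismutase, fell to about 0.495 of its WT level, while no member rose by the test. Of the 8 members, all of which passed the expression filter, 2 were called, both lower, against 20.3% of 14474 tested genes called in either direction, 9.17% higher and 11.1% lower. The other members were Cyba, Sod1, Sod2, Gpx3, Hmox1 and Nqo1. The median log2 difference was 0.07 over the 8 members and 0.00 over all tested genes. A call means an adjusted p under 0.05 by edgeR's quasi-likelihood test on UMI counts summed per library, with Benjamini-Hochberg adjustment over all tested genes, and every adjusted p below comes from this fit. Differences are log2 values, KO over WT.

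**Figure D1:**
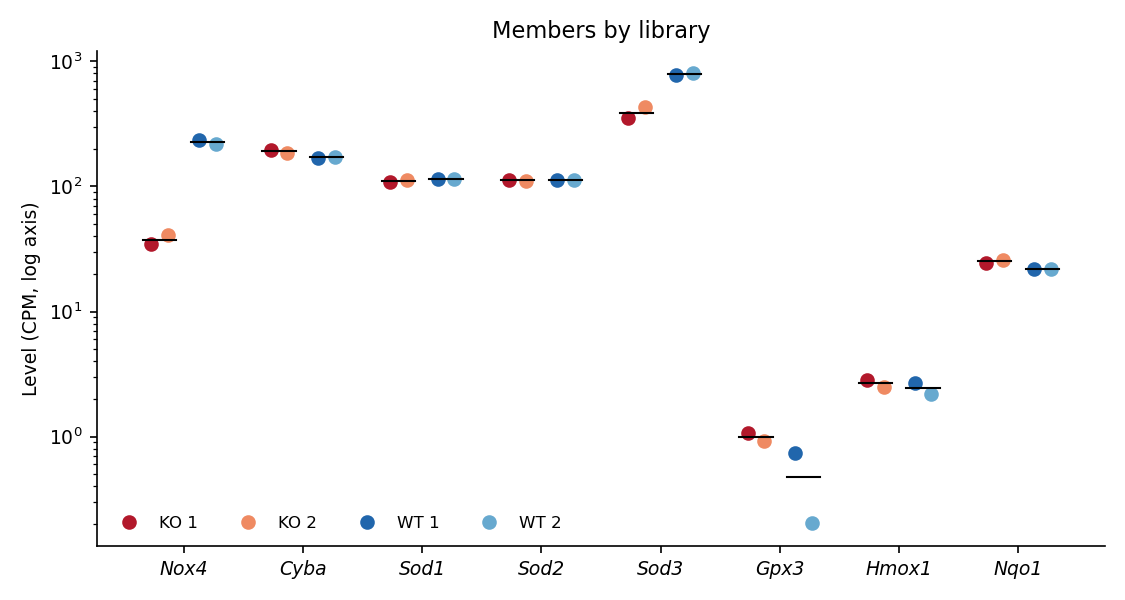
Level of each member in CPM on a log axis, 1 point per library and a line at the mean of each genotype (n = 2). Nox4 and Sod3 lie lower in both KO libraries, the points of Cyba, Sod1, Sod2 and Nqo1 lie close together, and Gpx3 and Hmox1 are near the bottom of the axis.

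Nox4 (ENSMUSG00000030562) lies on chromosome 7 from 87246096 to 87398710 on GRCm38, and UMI counts cover the whole gene model without a split by exon. It stood at 34.5 and 40.5 CPM in KO 1 and KO 2, against 235 and 217 CPM in WT 1 and WT 2. The genotypes lay far apart and the libraries of each close together. The log2 difference was −2.59 (SE 0.09, adjusted p = 3.0e-06), or 0.166 of the WT level. Of the tested genes 61, Nox4 among them, or 0.421%, fell at least as far, and among 5774 genes with a WT mean of at least 20 CPM there were 15 such genes, Nox4 included. Leaving out each library in turn gave −2.71 to −2.48. A further fit left out cells with 2 or more UMIs of endothelial, macrophage, lymphocyte, Schwann and glial, adipocyte, mesothelial or cardiomyocyte markers. This dropped 1333, 927, 411 and 620 cells of KO 1, KO 2, WT 1 and WT 2, and the difference was −2.60, as large as with them. Fibroblast markers were not part of this filter.

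Cyba, whose product NOX4 needs to be stable and active, did not pass the test. Cyba had 197 and 184 CPM in KO and 170 and 173 CPM in WT. Both KO values were above both WT values, but the difference of 0.15 (SE 0.06) did not pass (adjusted p = 0.133). The number of Nox4 UMIs per Cyba UMI was 0.175 and 0.220 in KO, against 1.38 and 1.26 in WT. Each UMI stands for the 3′ end of 1 molecule, so such ratios were taken without division by transcript length. Cyba overlaps Gm20388 on the opposite strand in the annotation, and how reads there were assigned is not given in the sources used here. Cyba is also a gene of macrophages, whose 12 markers summed to 12.7 and 1.79 CPM in KO 1 and KO 2 and to 1.98 and 1.81 CPM in WT. In KO 1, 3 cells had at least 3 UMIs of these markers, and they held 0.188% of its Cyba UMIs.

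Of the 3 dismutases 1, Sod3, passed the test. Sod1, the copper-zinc enzyme of the cytosol, had 108 and 113 CPM in KO and 115 and 114 CPM in WT (−0.05, SE 0.06, adjusted p = 0.617). Sod2, the manganese enzyme of mitochondria, had 113 and 111 CPM in KO and 112 and 113 CPM in WT (−0.01, SE 0.06, adjusted p = 0.961). Neither difference passed, and the SE leaves room for small changes in either direction. Sod1 overlaps Scaf4 on the opposite strand.

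Sod3 (ENSMUSG00000072941) on chromosome 5 from 52363791 to 52371418 encodes the copper-zinc enzyme that binds to matrix proteoglycans and is abundant in the arterial wall. It had the highest level of the members in every library. Sod3 stood at 349 and 430 CPM in KO and at 772 and 803 CPM in WT. The KO libraries differed from each other by more than the WT libraries did, with SDs of 57.0 and 22.5 CPM (n = 2 each), yet the genotypes did not overlap. The log2 difference was −1.01 (SE 0.10, adjusted p = 0.000308), and −1.17 to −0.87 when single libraries were left out. Sod3 supplied 61.2% and 65.7% of the UMIs of the 3 dismutases in KO, against 77.2% and 78.0% in WT.

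Gpx3, the secreted glutathione peroxidase found in plasma, was barely detected in these cells. Its counts were 64 and 47 UMIs in KO and 26 and 10 UMIs in WT, that is 1.08 and 0.914 CPM against 0.745 and 0.203 CPM. For comparison, 3 UMIs amount to between 0.0505 and 0.0860 CPM, depending on the library. The difference of 1.16 (SE 0.48, adjusted p = 0.134) did not pass. Gpx3 was called without WT 1 (2.28, adjusted p = 0.0108) and without an expression filter (1.16, adjusted p = 0.00402), and without WT 2 the difference was 0.42 (adjusted p = 0.480).

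The pair of NRF2 targets differed in level and neither passed. Hmox1, which breaks down heme, had 2.85 and 2.49 CPM in KO and 2.67 and 2.19 CPM in WT (0.14, SE 0.19, adjusted p = 0.623), with overlapping genotypes. Nqo1 had 24.6 and 25.8 CPM in KO and 21.98 and 21.7 CPM in WT. Its KO values lay above its WT values by 0.21 (SE 0.07, adjusted p = 0.0884). The libraries of the genotypes did not overlap for Nox4, Cyba, Sod1, Sod3, Gpx3 and Nqo1, but 63.5% of all tested genes showed the same.

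At equal depth, most KO cells had no Nox4 UMI and most WT cells had at least 1. Cells with at least 5000 UMIs were thinned to exactly 5000, which left out 150, 169, 197 and 162 cells of KO 1, KO 2, WT 1 and WT 2. A Nox4 UMI was found in 15.2% and 18.3% of the thinned KO cells and in 63.8% and 61.4% of the thinned WT cells. The exact 95% binomial intervals were 14.2 to 16.4% and 17.0 to 19.7% in KO and 61.8 to 65.8% and 59.7 to 63.1% in WT, and they cover counting error only. Without thinning the shares were 34.2% and 38.8% in KO and 86.0% and 86.9% in WT. KO cells averaged 0.178 and 0.214 Nox4 UMIs at that depth and WT cells 1.12 and 1.05. Cells with 3 or more Nox4 UMIs made up 0.317% and 0.447% of KO cells and 11.8% and 11.1% of WT cells. A Poisson distribution with the same means would put a UMI in 16.3% and 19.3% of KO cells and 67.4% and 64.9% of WT cells, each a little above the share observed.

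Sod3 was lower in KO both in its share of cells and in its UMIs per cell. At least 1 Sod3 UMI was found in 76.7% and 80.3% of thinned KO cells and in 95.8% and 94.7% of thinned WT cells. Without thinning these shares were 93.9% and 95.5% in KO and 97.1% and 97.6% in WT. The pooled WT median was 3 UMIs per thinned cell, and 26.2% and 33.7% of KO cells reached it, against 66.9% and 66.7% of WT cells. The variance of Sod3 counts was 1.66 and 2.20 times the mean in KO and 1.61 and 1.93 times in WT, where 1 is the value for pure counting error. For Sod2 that ratio lay between 0.991 and 1.01 in all 4 libraries.

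**Figure D2:**
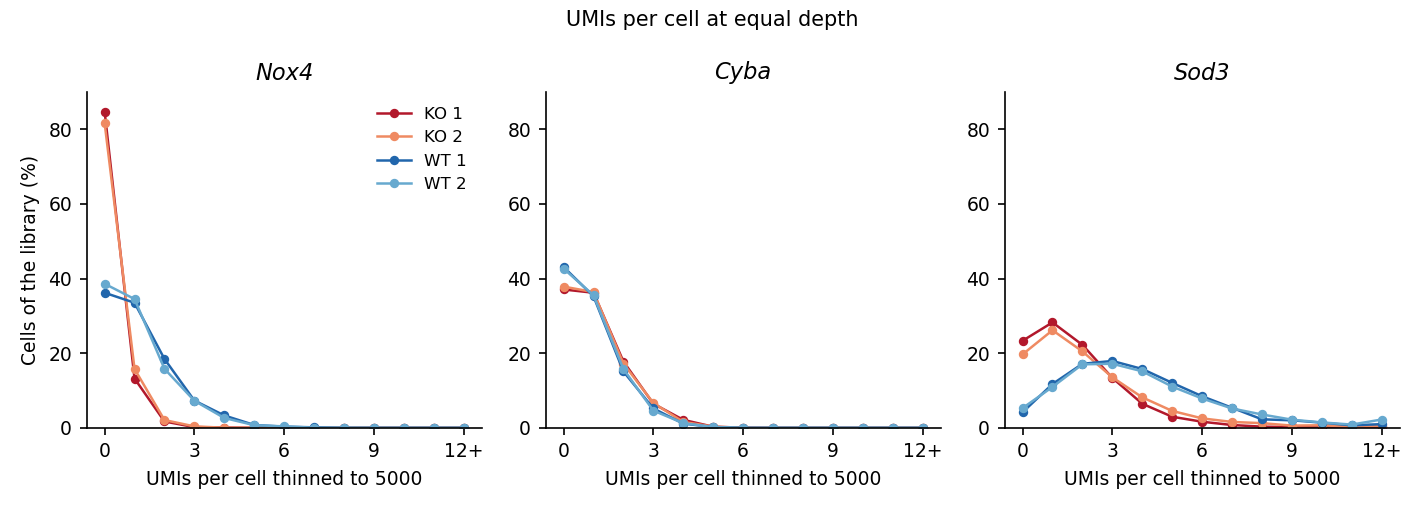
Share of cells (percent of each library) by the number of UMIs of Nox4, Cyba and Sod3 in cells thinned to 5000 UMIs, 1 line per library. The Nox4 lines of KO start at 84.8% and 81.7% of cells with no UMI, those of WT at 36.2% and 38.6%. The Cyba lines lie close together, and the Sod3 lines of KO peak at 1 UMI.

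Shares of the remaining members moved by fewer percentage points than those of Nox4 and Sod3. Thinned cells with a Cyba UMI averaged 62.5% ± 0.54 in KO and 57.1% ± 0.31 in WT (SD, n = 2 each), and those with a Nqo1 UMI 11.9% ± 0.91 and 9.68% ± 0.07. With 2 libraries a group the two-sided exact permutation test cannot go below p = 0.333, which Nox4, Cyba, Sod3, Gpx3, Hmox1 and Nqo1 reached. Sod1 (41.6% ± 2.08 in KO, 42.5% ± 0.45 in WT) gave p = 1.00 by that exact test and Sod2 (44.0% ± 0.81 in KO, 42.9% ± 0.97 in WT) p = 0.667. Hmox1 was seen in 1.54% and 1.43% of KO cells and in 1.30% and 1.26% of WT cells.

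Gpx3 was seen in 0.390% and 0.388% of thinned KO cells and in 0.358% and 0.0967% of thinned WT cells. No cell type that lacks the members was present in number, so the background that free RNA gives to Gpx3 was not measured. Of the hemoglobin genes, which smooth muscle should lack, Hbb-bs, Hbb-bt and Hba-a2 had no UMI in any library. A Hba-a1 UMI was found in 0.0244% of KO 1 cells, in 0 of 3353 KO 2 cells, which allows up to 0.0895% by a limit of 3 counts, and in 0.179% and 0.0322% of WT cells. Before thinning, the Gpx3 UMIs came from 43 and 33 KO cells and 13 and 7 WT cells, with at most 6 in a cell.

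Inside a library the members were at most weakly correlated with each other. Over the 28 pairs of members, Pearson correlations across thinned cells on the log scale lay between −0.047 and 0.100. Nox4 and Cyba, the partners of one complex, had 0.022 and −0.018 in KO and 0.019 and −0.006 in WT. Counting error at such low counts limits these values. Sod3 with Nqo1 had the highest, 0.100 in KO 2, against 0.014 in KO 1 and 0.018 and 0.020 in WT, and the next highest value of any pair was 0.057, for Gpx3 with Hmox1 in KO 2.

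For Nox4, the 5 most similar of 5744 genes by mean correlation over the WT libraries were Cped1, Mylk4, Myh11, Ccn3 and Ogn, but all means were between 0.096 and 0.101. Such weak values in sparse counts single out no gene. Sod3 had clearer companions. Sparc, a collagen-binding matrix protein, correlated with Sod3 at 0.151 and 0.194 in KO and 0.186 and 0.313 in WT. Col1a2, a chain of collagen I, had 0.156 and 0.209 in KO and 0.190 and 0.282 in WT. The microfibril genes Mfap4 and Mfap5 and the G-protein regulator Rgs5 completed the 5, with WT means of 0.228, 0.221 and 0.224. Mfap4 had 0.030 and 0.049 in KO, where Rgs5 had 0.210 and 0.398. Gpx3 had too few UMIs for its values, led by Igfbp4 at 0.112, to be read. The points are cells of 1 library each, 4102, 3353, 2232 and 3103 in KO 1, KO 2, WT 1 and WT 2.

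Cells with at least 10 Rgs5 UMIs, a limit set after the values were seen, numbered 176 and 388 in KO and 208 and 408 in WT, with 92, 132, 88 and 107 cells of KO 1, KO 2, WT 1 and WT 2 near it at 8 to 12 UMIs. In them Sod3 stood at 704 and 913 CPM in KO and 1033 and 1185 in WT, against 335 and 376 in the other KO cells and 735 and 738 in the other WT cells. Rgs5 had been picked for its correlation with Sod3 in these cells, so the higher Sod3 of Rgs5-rich cells restates that correlation. Within them both KO values lay below both WT values. Nqo1 in Rgs5-rich cells was 42.4 and 42.7 CPM in KO and 27.9 and 25.7 in WT, against 23.9 and 24.1 in the other KO cells and 21.1 and 20.8 in the other WT cells.

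Elastin (Eln), the matrix gene that falls with Nox4 in KO, allowed the genotypes to be set beside each other at equal Eln counts. Among thinned cells with 3 to 7 Eln UMIs (719 and 301 in KO, 462 and 693 in WT), Nox4 was at 31.1 and 42.5 CPM in KO and 218 and 211 in WT. Nox4 was thus about as far apart between the genotypes as in all cells. Across the Eln bins of WT, Nox4 ranged between 195 and 232 CPM and showed no order with Eln. Sod3 did: it was 608 and 540 in WT cells with 0 to 2 Eln UMIs and 850 and 939 in those with 15 or more.

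A handful of KO cells kept much Eln, 15 in KO 1 and 12 in KO 2 with 15 or more UMIs at the thinned depth. In these cells Nox4 was at 253 CPM (exact Poisson interval 152 to 396) in KO 1 and at 267 (152 to 433) in KO 2, against 224 and 195 in WT cells of the same bin. Sod3 was at 987 (775 to 1239) and 1300 (1028 to 1622) there, against 850 and 939 in WT cells. The bin rests on under 20 cells and on 19 and 16 Nox4 UMIs, and the intervals cover counting error only. In the KO cells with 8 to 14 Eln UMIs, 48 and 20 in number, Nox4 was at 33.3 CPM in KO 1 and had 3 UMIs in all in KO 2. Cells with a tdTomato UMI, 120 in KO 1 and 60 in KO 2 but 1 and 2 in WT, differed between the KO libraries, with Nox4 at 33.7 (25.8 to 43.3) in KO 1 and 80.9 (63.9 to 101) in KO 2, against 34.6 and 40.4 in KO cells without one.

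**Figure D3:**
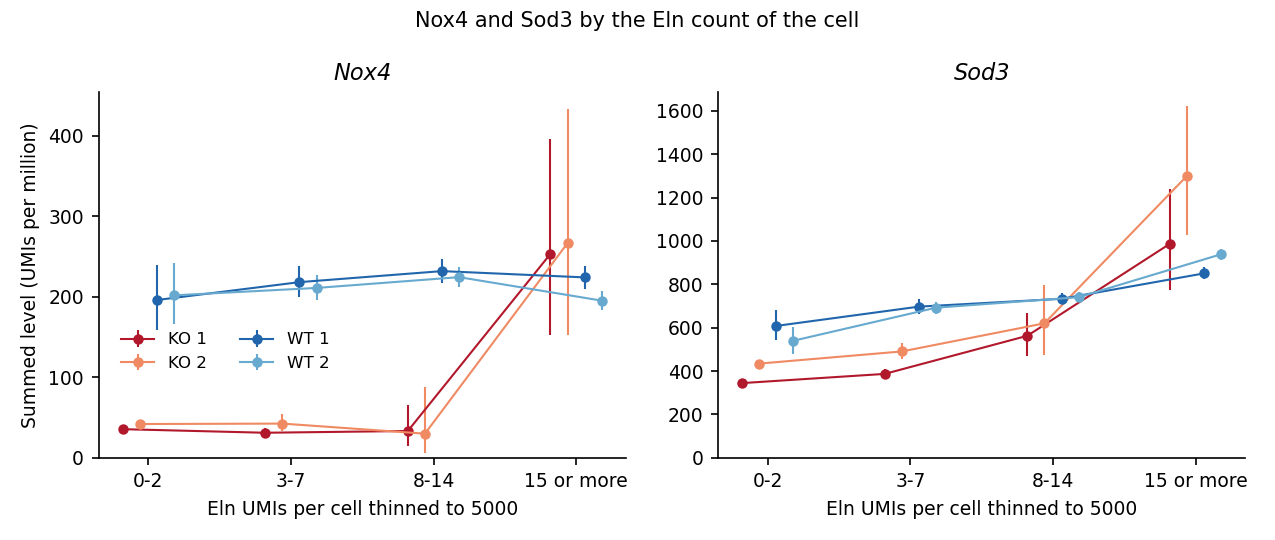
Summed level of Nox4 and Sod3 (CPM) in cells thinned to 5000 UMIs, grouped by their Eln count, with exact Poisson intervals for counting error, 1 line per library. KO cells stay below WT cells for Nox4 in the 3 lower bins, while the 15 and 12 KO cells of the highest bin lie near WT. Sod3 is higher in the upper bins than in the lowest one in all 4 libraries.

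No tested gene of the NADPH oxidase list was called higher in KO. Of 17 genes listed 7 were tested, with a median of −0.08. Of these 1, Nox4, was called lower, none higher and 6 did not pass, or 14.3% called against 20.3% of all tested genes. Nox1 had 16 and 26 UMIs in KO and 14 and 23 UMIs in WT (adjusted p = 0.775), and Cybb, the oxidase of phagocytes, had 6 and 0 UMIs in KO and 0 and 2 UMIs in WT. Nox3, Duox1 and Duox2 had no UMI in any library. The GTPase gene Rac1 (163 and 168 CPM in KO, 151 and 148 CPM in WT, adjusted p = 0.123) and Poldip2, which binds the NOX4 complex (26.2 and 25.3 CPM in KO, 24.9 and 27.1 CPM in WT, adjusted p = 0.915), did not pass. Nor did the organizer gene Noxo1 (−0.20, adjusted p = 0.188) or the chaperone gene Cybc1 (−0.08, adjusted p = 0.593).

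Of 10 tested genes in the list of dismutases and of the copper delivery on which Sod1 and Sod3 depend, 2 were lower (Sod3 itself and Slc31a2), 1 higher (Ccs) and 7 not passing, or 30% called against 20.3% of all tested genes (median 0.01). Ccs, the copper chaperone of Sod1, had 50.8 and 49.3 CPM in KO and 41.0 and 43.2 CPM in WT (0.25, SE 0.07, adjusted p = 0.0384), and Slc31a2, a copper transporter, 16.0 and 15.7 CPM in KO and 19.98 and 19.2 CPM in WT (−0.31, SE 0.08, adjusted p = 0.0292). Both calls were lost without any 1 library, at adjusted p-values of 0.211 and 0.125 (without WT 1), 0.0794 and 0.0666 (WT 2), 0.131 and 0.0690 (KO 1) and 0.0704 and 0.0918 (KO 2) for Ccs and Slc31a2 in this order. Slc31a2 lies on chromosome 4, 14.8 Mb from the floxed gene Tgfbr1. Atox1 and Atp7a, which hand copper to secreted enzymes such as SOD3, did not pass (0.15 and 0.10, adjusted p = 0.147 and 0.533).

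**Figure D4:**
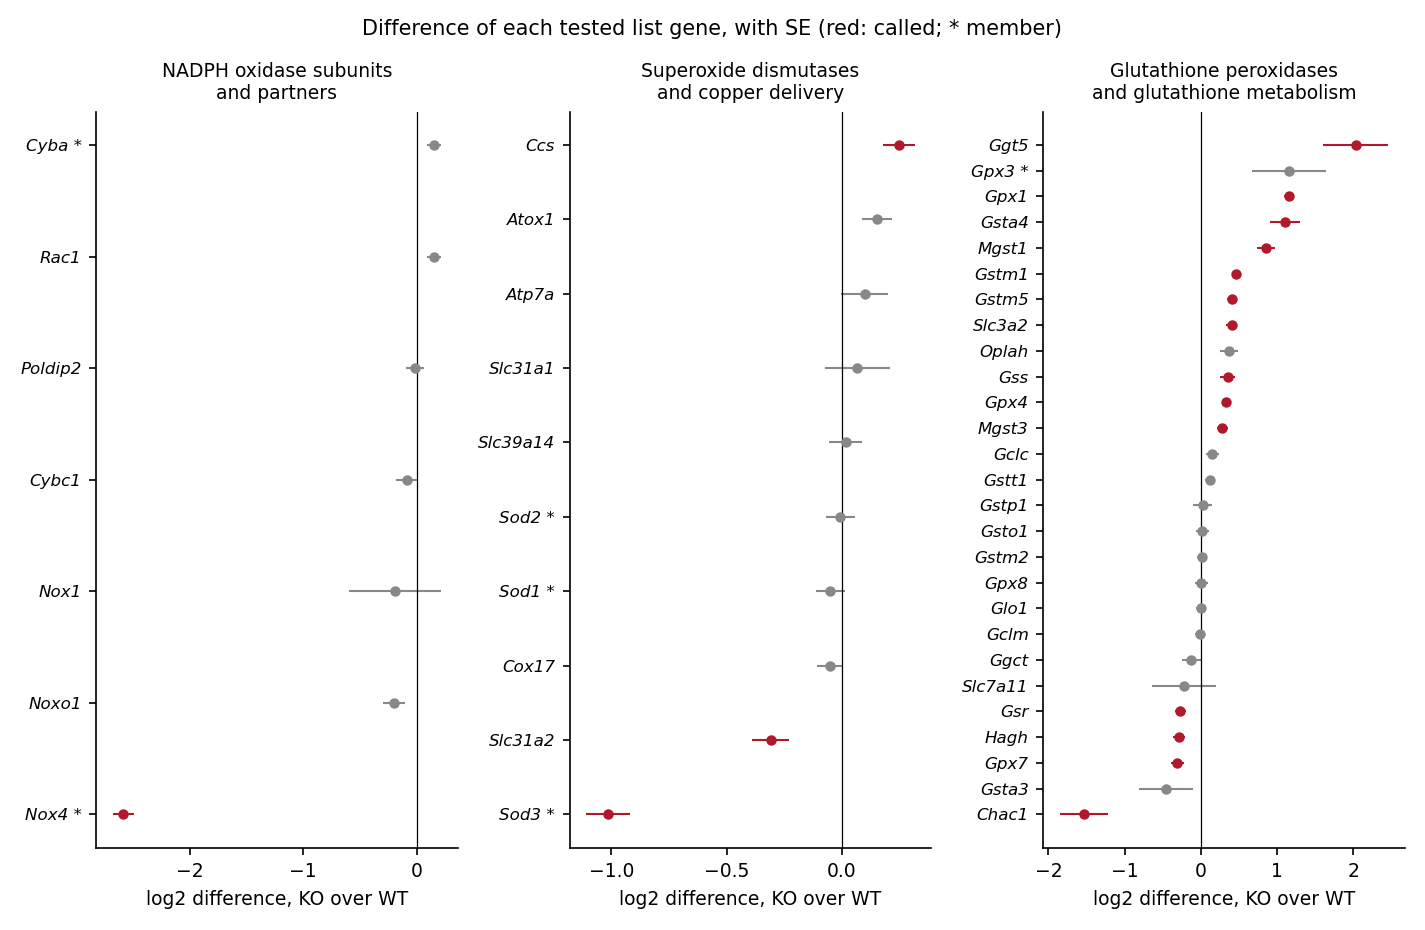
Log2 difference, KO over WT, with its SE for each tested gene of 3 lists. Red points were called at an adjusted p under 0.05, grey points were not, and an asterisk marks a member. Nox4 and Sod3 are the lowest of their lists, and Gpx1 and Mgst1 stand among the higher genes of the glutathione list.

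The list of glutathione peroxidases and glutathione metabolism held more higher than lower genes. Of 27 tested genes 10 rose, 4 fell and 13 did not pass, or 51.9% called against 20.3% of all tested genes, and the median was 0.12. The count of lower genes was 0 without KO 2 and 1 without any other library, while that of higher genes was 7 to 9 in these fits. Gpx1 (ENSMUSG00000063856), the most widespread glutathione peroxidase of the cytosol, had 1680 and 1686 CPM in KO and 732 and 779 CPM in WT. Its difference was 1.15 (SE 0.06, adjusted p = 1.3e-05) and its KO mean 2.23-fold the WT mean. Gpx1 lies on chromosome 9 from 108338903 to 108340343, 7.74 Mb from the floxed gene Tgfbr2. Whether this position has a part in the difference was not tested. Of the other peroxidases of the list, Gpx4 rose, Gpx7 fell, and Gpx3 and Gpx8 did not pass. The remaining 8 higher genes were Gss, Slc3a2, Ggt5, Gsta4, Gstm1, Gstm5, Mgst1 and Mgst3, of glutathione synthesis, transport, breakdown and transfer. Gpx7, a peroxidase of the endoplasmic reticulum, had 25.9 and 23.0 CPM in KO and 29.2 and 31.2 CPM in WT (−0.31, SE 0.09, adjusted p = 0.0395), and Gsr, which regenerates glutathione, 23.9 and 24.7 CPM in KO and 29.8 and 28.8 CPM in WT (−0.27, SE 0.07, adjusted p = 0.0339). Both were named after their values were seen, as were Chac1 and Hagh, the other lower genes of the list. Chac1 fell furthest (−1.53, SE 0.32, adjusted p = 0.0121), but on only 17 and 14 UMIs in KO and 31 and 37 UMIs in WT. Hagh lay at −0.29 (SE 0.08, adjusted p = 0.0378). Gpx7 was not called without WT 1 (adjusted p = 0.0708), WT 2 (0.166) or KO 2 (0.159), and Gsr was not called whichever 1 library was left out (0.0680 to 0.157).

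Mgst1, a microsomal glutathione transferase, rose by 0.85 (SE 0.11, adjusted p = 0.00172) to 33.9 and 39.3 CPM in KO, against 18.1 and 22.3 CPM in WT. The cytosolic transferases Gstm1 (0.47, adjusted p = 0.00186) and Gstm5 (0.41, adjusted p = 0.00508) rose as well. Gstm genes are close copies, so the split of their UMIs is uncertain. Of these, Gstm1 was the most abundant, with 1053 and 991 CPM in KO and 712 and 767 CPM in WT. Gpx4, which protects membrane lipids and was named after its values were seen, had 615 and 595 CPM in KO and 473 and 490 CPM in WT (0.33, SE 0.06, adjusted p = 0.00606).

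Catalase, the peroxiredoxins and the thioredoxin system included 4 of 28 genes higher, 2 lower (Cat and Msrb3) and 22 not passing, or 21.4% called (median 0.05, 20.3% of all tested genes). Cat, the gene of catalase, named after its values were seen, had 28.3 and 29.4 CPM in KO and 37.0 and 34.2 CPM in WT (−0.30, SE 0.08, adjusted p = 0.0260). It was not called without WT 1 (adjusted p = 0.154) or KO 1 (adjusted p = 0.0945). The methionine sulfoxide reductases, which repair oxidized proteins, moved apart. Msra rose by 0.43 (SE 0.07, adjusted p = 0.00299) and Msrb1 by 0.33 (SE 0.06, adjusted p = 0.00639), while Msrb3 fell to 206 and 228 CPM in KO, against 312 and 282 CPM in WT (−0.45, SE 0.08, adjusted p = 0.00536). Selenop, a selenium carrier, rose by 0.28 (SE 0.06, adjusted p = 0.0140). Without WT 1 the list held 1 higher and 1 lower gene, and neither Msrb1 (adjusted p = 0.0546) nor Selenop (adjusted p = 0.106) was called.

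NRF2 and its targets, the group of Hmox1 and Nqo1, held 8 higher, 3 lower and 21 not passing genes of 32 (median 0.14). That is 34.4% called, against 20.3% of all tested genes. The lists share genes, so their shares called are not separate results. Fth1, for example, counts both here and among the heme, iron and metallothionein genes. The gene of NRF2 itself, Nfe2l2, named after its values were seen, had 154 and 145 CPM in KO and 76.8 and 97.4 CPM in WT (0.77, SE 0.11, adjusted p = 0.00198). The detoxifying enzymes Ephx1 (0.70, SE 0.07, adjusted p = 0.000287) and Akr1b8 (1.01, SE 0.12, adjusted p = 0.000930) rose, Akr1b8 to 8.18 and 7.87 CPM in KO, against 4.04 and 3.96 CPM in WT. Mafk, a small partner protein of NRF2, fell to 23.9 and 25.6 CPM in KO, against 41.8 and 42.0 CPM in WT (−0.76, SE 0.07, adjusted p = 0.000335).

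The ferritin genes and 2 of the metallothionein genes rose, a further metallothionein gene, Mt3, fell, and Hmox1 was not called. Of 17 tested genes of heme, iron and metallothioneins 5 were higher, 2 lower and 10 not passing, or 41.2% called against 20.3% of all tested genes (median 0.03), and the count of lower genes was 0 without WT 1 or KO 2 and 1 without KO 1. The ferritin genes Fth1 and Ftl1 rose by 0.49 (SE 0.05, adjusted p = 0.000355) and 0.46 (SE 0.07, adjusted p = 0.00317). Fth1 had 10457 and 9934 CPM in KO and 7268 and 7232 CPM in WT. Both ferritins have near-identical processed copies in the genome, so their counts are uncertain. The metal-binding proteins Mt1 (0.51, SE 0.06, adjusted p = 0.000941) and Mt2 (0.83, SE 0.10, adjusted p = 0.00110) rose too, Mt2 to 124 and 102 CPM in KO, against 60.6 and 66.7 CPM in WT. Hmox2, a further heme oxygenase gene, was called higher (0.32, SE 0.09, adjusted p = 0.0391). Slc40a1 was called lower (−2.03, SE 0.53, adjusted p = 0.0315), on 10 and 3 UMIs in KO and 21 and 19 UMIs in WT. Hmox2 and Slc40a1 were named after their values were seen. Mt3, named after its values were seen, was at 0.135 and 0.117 CPM in KO and at 1.69 and 0.386 CPM in WT (−2.95, SE 0.74, adjusted p = 0.0261). It rested on 8 and 6 UMIs in KO and 59 and 19 UMIs in WT, and it was not called without WT 1 (−1.60, adjusted p = 0.158), KO 1 (adjusted p = 0.0586) or KO 2 (adjusted p = 0.0580).

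Enzymes that supply NADPH, the electron source of NOX4 and of glutathione reduction, had no common direction. Of 13 genes 2 were higher, 3 lower and 8 not passing, or 38.5% called against 20.3% of all tested genes (median −0.04). The cytosolic enzymes Idh1 (−0.56, SE 0.07, adjusted p = 0.00159) and Me1 (−0.43, SE 0.09, adjusted p = 0.00993) and the mitochondrial Aldh1l2 (−0.81, SE 0.14, adjusted p = 0.00544) fell, and the mitochondrial malic enzyme gene Me3 rose (0.85, SE 0.12, adjusted p = 0.00199). Me1 lies on chromosome 9, 29.4 Mb from Tgfbr2. Of the genes named from these lists, Nox1, Rac1, Noxo1, Cybc1, Gstm5, Msra, Msrb3, Selenop, Mafk, Ftl1, Mt2, Me1, Me3 and Aldh1l2 overlap a gene on the opposite strand, so their counts are uncertain where strand was not used. Vkorc1 and Nox1 overlap a protein-coding gene on the same strand (Gm21974 and Xkrx), where strand does not separate the counts.

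The list of other superoxide and peroxide sources, not all of them oxidases, also moved apart. Of its 11 tested genes 1 was higher, 2 lower and 8 not passing, or 27.3% called against 20.3% of all tested genes (median 0.05). Pcyox1, a prenylcysteine oxidase, fell by 0.46 (SE 0.07, adjusted p = 0.00422). Vkorc1, the vitamin K epoxide reductase, fell (−0.33, SE 0.08, adjusted p = 0.0262), and Smox, the spermine oxidase, rose (0.58, SE 0.16, adjusted p = 0.0359). Vkorc1 was not called without WT 2 (adjusted p = 0.139) or KO 2 (0.0853), nor Smox without WT 1 (0.157), KO 1 (0.108) or KO 2 (0.0755). Aox1, an aldehyde oxidase, lay at −0.34 (SE 0.10, adjusted p = 0.0508).

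**Figure D5:**
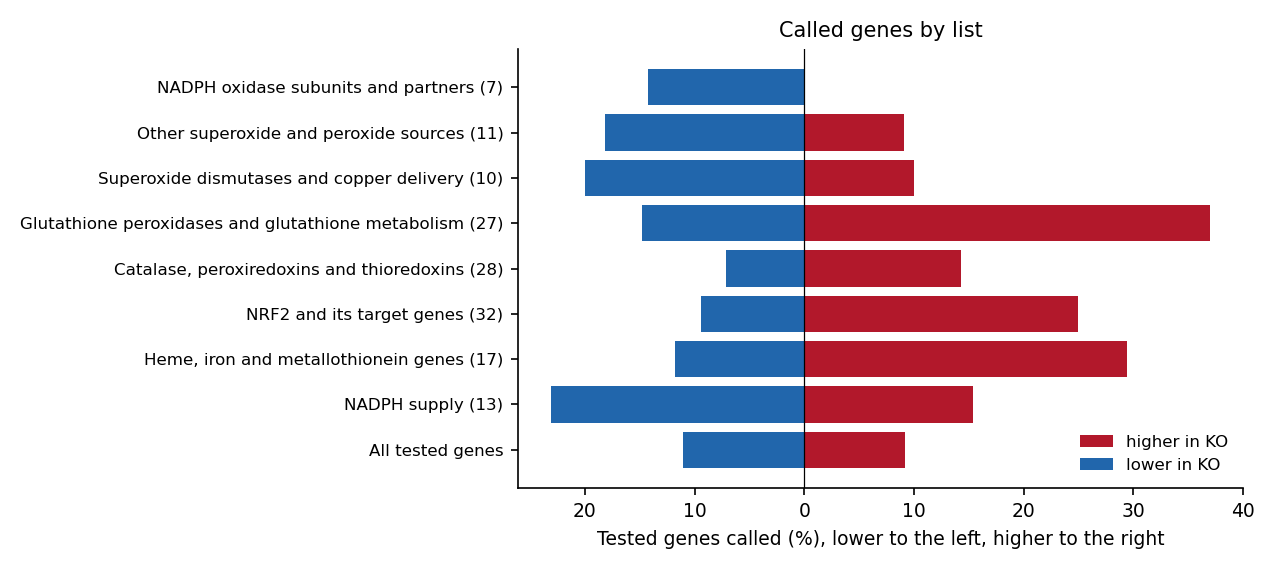
Percent of the tested genes of each list that were called lower (left of 0) or higher (right of 0) in KO, with the number tested in brackets and all 14474 tested genes at the bottom. The glutathione list has the longest bar to the right, 10 of 27 genes, and the NADPH oxidase list has none there. Lists share genes, so the same call can count in several bars.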

How the data were processed

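Counts of UMIs per gene and cell were deposited by the authors as matrices without normalization. The file headers name Cell Ranger 5.0.1, and the submitters' processing notes list mm10 and Seurat 4.0. There were 4504, 3858, 2769 and 3565 barcodes in KO 1, KO 2, WT 1 and WT 2. Per the labels, 4376, 3707, 2597 and 3420 cells were present before a filter and 4031, 3246, 2151 and 3000 after it, with no criteria stated.

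A cell was kept if it had 1000 or more UMIs, 500 or more genes and no more than 10% of its UMIs from mitochondrial genes. No doublets were removed. Counts were summed by library, scaled with TMM, filtered with filterByExpr and tested with edgeR 4.0.16 (R 4.3.3), after a check on simulated counts. CPM values use TMM-scaled library totals, and the biological coefficient of variation was 7.84%. Libraries of a genotype differed beyond counting error, with a chi-square of 16.1 (KO) and 14.3 (WT) for each degree of freedom. SE is the size of the log2 difference divided by the square root of F.

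Members and gene lists were chosen with earlier results of these data known. Of the oxidase list 1 gene is not reported here and was left out of its counts. The text names the members, both receptors, the oxidase list, the 4 non-members of lowest p in each list and the 5 genes most like Nox4, Sod3 and Gpx3, with exceptions stated. Gene positions are those of GENCODE M21. Alternatives were RLE scaling, DESeq2 1.42.0, limma-voom 3.58.1, other gene and cell filters, a replicate block, other thinning depths and leaving out each library.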

Additional observations from a re-analysis of the deposited data

How the results depend on the processing

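Nox4 and Sod3 were lower in KO and called in all 12 alternative fits, at −2.71 to −2.48 and −1.17 to −0.87. Cyba, Sod1, Sod2, Hmox1 and Nqo1 were called in none of them. Gpx3 was called without an expression filter (1.16), with the replicate block (1.19, adjusted p = 0.0362) and without WT 1 (2.28), and leaving out single libraries gave 0.42 to 2.28. The main fit called 1327 genes higher and 1611 lower, and fits without 1 library called 805 to 1161 higher and 1039 to 1297 lower, the fewest without WT 1. The library numbers do not pair the samples as far as the labels say. Deviations of the libraries numbered 1 from their group means correlated at −0.003 over 5743 genes. With the replicate block 1523 genes were higher and 1751 lower, Nox4 was at −2.59 and Sod3 at −1.02, and no member other than Gpx3 changed its call.

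Differences in the share of cells with a UMI depend on depth. For 3000 and 8000 UMIs per cell and no thinning, the difference in percentage points was −35.4, −52.5 and −50.0 for Nox4 (−45.8 at 5000), 3.15, 4.42 and 3.74 for Cyba (5.42) and −22.4, −8.78 and −2.67 for Sod3 (−16.8). Without thinning it was −0.15 for Sod2 (1.10, the reversed sign), 0.60 for Gpx3 (0.16) and 0.28 for Hmox1 (0.21), and at 3000 UMIs 0.099 for Hmox1 and 1.10 for Nqo1 (2.23). Leaving out single libraries gave −47.4 to −44.3 for Nox4, 5.04 to 5.80 for Cyba, −2.34 to 0.60 for Sod1, 0.42 to 1.78 for Sod2, −18.6 to −15.0 for Sod3, 0.030 to 0.292 for Gpx3, 0.153 to 0.258 for Hmox1 and 1.58 to 2.87 for Nqo1. Gpx3 and Hmox1 rest on so few UMIs that small changes cannot be seen at this depth. Even changes above the SE can be missed, as the log2 difference of Gpx3 in the main fit, 1.16 (SE 0.48), did not pass.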
